A study of Mus musculus with 6 samples.

Results

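A set of 9 genes for receptors of acetylcholine were followed through the cells of the mouse preoptic region: the muscarinic receptor genes Chrm1, Chrm2, Chrm3, Chrm4 and Chrm5, and the nicotinic subunit genes Chrna3, Chrna4, Chrna7 and Chrnb2. They were taken by symbol from the 27998 genes of the count table. Muscarinic receptors are slow receptors that act through G proteins. The products of Chrm1, Chrm3 and Chrm5 couple to Gq, which activates phospholipase C and makes most neurons more excitable, and those of Chrm2 and Chrm4 couple to Gi and Go, which lower cyclic AMP and open potassium channels. Nicotinic receptors are fast cation channels built of 5 subunits. In the brain, Chrna4 and Chrnb2 subunits together form the most common high-affinity nicotine site, Chrna3 usually joins with Chrnb4 in ganglia and in a few brain nuclei, and Chrna7 forms channels of its own. In the striatum, Chrm1 is known from both classes of projection neuron and Chrm4 mainly from the class that carries the dopamine receptor Drd1, while Chrm2 is known as an autoreceptor on cells that release acetylcholine.

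Single cells of the preoptic region of the hypothalamus of Mus musculus were profiled by droplet sequencing (10x Chromium) in 6 libraries, 3 from female and 3 from male mice. Each library pooled 3 mice of 60 to 70 days that had been kept alone for 3 days. Fresh tissue was digested with protease and live cells were collected by sorting, and no source used here names the strain. The pool is the replicate, so the spread between libraries is the spread between pools.

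After filters, 29822 cells remained. Female replicates 1, 2 and 3 kept 4555, 9365 and 406 cells and male replicates 1, 2 and 3 kept 7030, 6527 and 1939, with a median of 2671 to 6538 UMIs (unique molecular identifiers, each 1 captured RNA molecule) per cell. Female replicate 3 was the smallest library and male replicate 3 the next. The barcode letters of 941 kept cells also occurred in another library. Clusters were named from marker lists, and a name means only that profile of markers. There were 14792 inhibitory neurons (Gad1, Gad2 and Slc32a1, the genes that make and load GABA), 3296 excitatory neurons (Slc17a6, which loads glutamate), 6608 mature oligodendrocytes, 1548 oligodendrocyte precursors, 834 astrocytes and smaller classes. Neurons were divided further into 26 GABA and 7 glutamate subclusters, each called by its transmitter and 2 of its leading genes. Subclusters led by hypothalamic genes (Gal, Avp, Trh) lay beside subclusters led by genes known from striatum (Drd1, Adora2a, Penk) and thalamus (Tcf7l2, Shox2). Levels are CPM, the UMIs of a gene scaled to the total UMIs of the same cells. Mature oligodendrocytes served as the gauge of free RNA. Snap25, a neuronal synapse gene, had a UMI in 97.5% of neurons (median 7042 UMIs per cell) and in 36.0% of mature oligodendrocytes (median 4818 UMIs).

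In all kept cells, 2172 UMIs of Chrm1, 3000 of Chrm2, 1548 of Chrm3, 25 of Chrm4, 269 of Chrm5, 697 of Chrna3, 900 of Chrna4, 117 of Chrna7 and 2785 of Chrnb2 were counted. These receptor messages are therefore sparse. Of 18218 neurons, 60.5% had no UMI of any of the 9 genes, 31.1% had UMIs of 1 gene and 7.30% of 2 genes.

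The genes lie at chr19:8663789-8683587 on the plus strand (Chrm1, ENSMUSG00000032773), chr6:36388084-36528414 plus (Chrm2, ENSMUSG00000045613), chr13:9875486-10360847 minus (Chrm3, ENSMUSG00000046159), chr2:91927249-91928688 plus (Chrm4, ENSMUSG00000040495) and chr2:112479171-112480769 minus (Chrm5, ENSMUSG00000074939) of build mm10 in GENCODE M21. The nicotinic genes lie at chr9:55010111-55026562 (Chrna3, ENSMUSG00000032303), chr2:181018380-181043546 (Chrna4, ENSMUSG00000027577), chr7:63098692-63212569 (Chrna7, ENSMUSG00000030525) and chr3:89746195-89764632 (Chrnb2, ENSMUSG00000027950), all on the minus strand. The models of Chrm4 and Chrm5 hold 1 transcript each and almost no untranslated sequence, and the RefSeq models run 1147 bases (Chrm4) and 438 bases (Chrm5) beyond their 3′ ends. No source used here names the gene models that the authors counted, so a low count of Chrm4 or Chrm5 is not read as absence. Chrnb2 overlaps Adar on the opposite strand, and Chrm2 overlaps the RNA gene 9330158H04Rik on the opposite strand. The strand of counting is not stated, so reads in those overlaps could not be assigned with certainty. Adar stood at 66.3 CPM in neurons, 20.4 CPM in oligodendrocyte precursors and 8.71 CPM in mature oligodendrocytes.

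The 250 bases before a transcript start, as the RefSeq promoter table places it, are shown for 4 of these genes (GRCm38.p6, 5′ to 3′ on the gene's own strand). They were chosen because results below turn on them: Chrm2 in cholinergic cells, Chrna3 in a few GABA subclusters, and the partner subunits Chrna4 and Chrnb2. The windows are Chrm2 at chr6:36387834-36388083 (plus strand), Chrna3 at chr9:55026563-55026812, Chrna4 at chr2:181039178-181039427 and Chrnb2 at chr3:89764633-89764882 (all minus strand). The outermost RefSeq start of Chrna4 is at 181043579, so its window lies inside the gene, and that of Chrm2 is at 36387991, so its window reaches into the RefSeq gene and ends at the GENCODE start. Capitals mark matches, on either strand, to the GC box (GGGCGG), the cyclic AMP response element (TGACGTCA) or a core piece of the RE1 silencer element (CAGCACC).
Chrm2: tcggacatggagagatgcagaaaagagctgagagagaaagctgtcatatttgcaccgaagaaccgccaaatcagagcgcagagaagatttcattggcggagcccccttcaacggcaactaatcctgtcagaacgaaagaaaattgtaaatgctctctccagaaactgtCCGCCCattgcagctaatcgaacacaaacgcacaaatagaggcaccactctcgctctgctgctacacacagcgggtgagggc
Chrna3: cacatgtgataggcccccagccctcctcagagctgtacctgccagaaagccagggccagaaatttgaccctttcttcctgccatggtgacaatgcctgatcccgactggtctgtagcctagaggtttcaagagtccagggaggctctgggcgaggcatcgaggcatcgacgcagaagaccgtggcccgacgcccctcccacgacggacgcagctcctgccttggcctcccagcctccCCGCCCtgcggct
Chrna4: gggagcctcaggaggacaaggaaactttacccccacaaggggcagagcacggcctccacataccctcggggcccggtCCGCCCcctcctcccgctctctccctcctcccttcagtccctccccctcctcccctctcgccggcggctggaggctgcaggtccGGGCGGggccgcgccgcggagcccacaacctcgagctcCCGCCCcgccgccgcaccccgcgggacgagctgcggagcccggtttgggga
Chrnb2: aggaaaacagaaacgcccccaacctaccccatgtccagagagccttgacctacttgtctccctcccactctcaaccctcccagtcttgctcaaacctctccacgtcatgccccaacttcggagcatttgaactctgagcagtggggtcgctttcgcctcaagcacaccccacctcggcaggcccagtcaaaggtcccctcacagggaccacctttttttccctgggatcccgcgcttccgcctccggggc
All capitals in these 4 stretches are GC boxes: 1 for Chrm2, 1 for Chrna3, 3 for Chrna4 and 0 for Chrnb2. Of 32851 RefSeq promoters in the same window, 32.7% held a GC box, 1.55% the response element and 5.73% the RE1 piece. The E box (CANNTG, not marked) was found 2 times for Chrna3 and 1 time for Chrnb2, and 66.2% of all promoters held it. A match is a run of letters and not evidence of binding. The RefSeq table held promoters for 8 of the 9 genes.

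**Figure D1:**
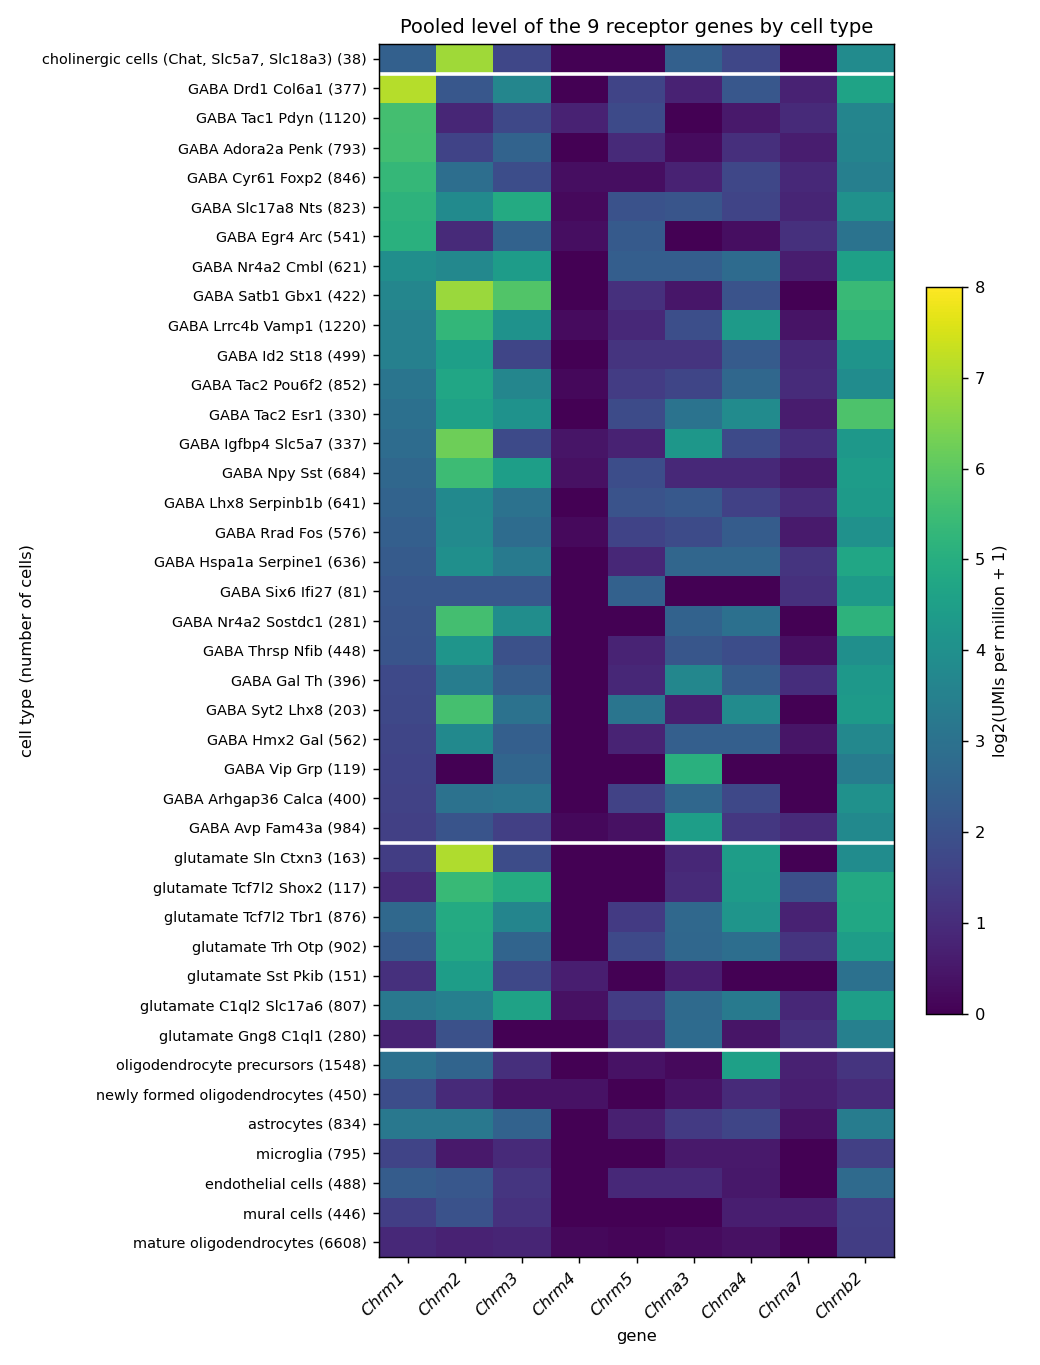
Pooled level of the 9 receptor genes (columns, log2 of CPM + 1) in each cell type (rows, with the number of cells), with neurons that carry at least 2 of Chat, Slc5a7 and Slc18a3 at the top, then GABA subclusters in order of Chrm1, glutamate subclusters in order of Chrm2, and glia and vascular cells. Chrm1 is brightest in GABA Drd1 Col6a1 neurons (136 CPM), Chrm2 in glutamate Sln Ctxn3 neurons (131 CPM), Chrna3 in GABA Vip Grp neurons (32.6 CPM), and the columns of Chrm4 and Chrna7 stay dark.

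Chrm1, the Gq-coupled receptor of forebrain projection neurons, was highest in a subcluster with striatal genes. Its level in GABA Drd1 Col6a1 neurons was 72.9 and 140.0 CPM in female replicates 1 and 2 and 158, 109 and 147 CPM in male replicates 1, 2 and 3. It stood at 44.1 ± 11.4 CPM (SD, n = 5) in GABA Tac1 Pdyn neurons, the larger Drd1-type subcluster, and at 44.7 ± 7.97 CPM (SD, n = 5) in GABA Adora2a Penk neurons. Every library placed GABA Drd1 Col6a1 above both, and these last 2 did not differ beyond their spread. GABA Cyr61 Foxp2 (36.7 ± 10.2 CPM, SD, n = 6), GABA Slc17a8 Nts (35.8 ± 7.25 CPM, SD, n = 5) and GABA Egr4 Arc neurons (34.6 ± 5.62 CPM, SD, n = 5) followed, and overlapped with each other and with GABA Tac1 Pdyn and GABA Adora2a Penk neurons. The next subcluster in the order, GABA Nr4a2 Cmbl, stood at 14.3 CPM when libraries were pooled. Mature oligodendrocytes stood at 0.800 ± 0.627 CPM (SD, n = 6).

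A UMI of Chrm1 was found in 37.9% of GABA Drd1 Col6a1 cells, 28.9% of GABA Tac1 Pdyn cells and 26.1% of GABA Adora2a Penk cells, against 0.514% of mature oligodendrocytes. GABA Drd1 Col6a1 cells were shallow, with a median of 3473 UMIs against 6990 in GABA Tac1 Pdyn and 6012 in GABA Adora2a Penk cells. With every cell thinned to 2000 UMIs, which left out 553 shallower cells (16 of female replicate 1, 161 of female replicate 3 and 376 of male replicate 3), the shares were 23.9%, 9.84% and 9.11%, against 0.108% in mature oligodendrocytes. The order was the same at equal depth. Across 44 cell types, the genes whose levels ran most like Chrm1 were Icam5, a dendritic adhesion molecule (Pearson r = 0.87), Ddn, a dendritic protein (r = 0.85), and Myo5b, a motor protein (r = 0.85). The 44 points share libraries and differ in depth.

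Chrm2, the Gi-coupled receptor, was high in other cells. In glutamate Sln Ctxn3 neurons it stood at 172 and 129 CPM in female replicates 1 and 2 and at 134, 77.4 and 91.3 CPM in male replicates 1, 2 and 3. In GABA Satb1 Gbx1 neurons it averaged 109 ± 12.1 CPM (SD, n = 5), with 95.7 CPM in the lowest library. These 2 subclusters overlapped between libraries and had the highest means. GABA Igfbp4 Slc5a7 neurons, which carry the choline transporter gene, came next at 64.9 ± 26.4 CPM (SD, n = 5), and at 90.4 CPM in male replicate 2 they stood above glutamate Sln Ctxn3 in that library. They overlapped with glutamate Sln Ctxn3 and with GABA Syt2 Lhx8 (48.7 ± 14.9 CPM, SD, n = 4), GABA Nr4a2 Sostdc1 (48.0 ± 18.0 CPM, SD, n = 5) and GABA Npy Sst neurons (43.3 ± 3.94 CPM, SD, n = 5).

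The striatal subclusters were low for Chrm2. Pooled, it stood at 3.49 CPM (5 UMIs) in GABA Drd1 Col6a1, 0.823 CPM (7 UMIs) in GABA Tac1 Pdyn and 2.03 CPM (11 UMIs) in GABA Adora2a Penk neurons, and no UMI was found in 119 GABA Vip Grp cells, where the upper 95% limit of counting error was 3.75 CPM. Mature oligodendrocytes stood at 0.563 ± 0.459 CPM (SD, n = 6). Of the 33 neuron subclusters, 21 reached 10 CPM of Chrm2, against 10 for Chrm1. Over the 44 types, the 2 genes showed no shared order (r = -0.10). Among the genes most like Chrm2 were Lynx1, whose product binds nicotinic receptors at the membrane (r = 0.87), and Ppm1e, a phosphatase (r = 0.86).

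Chrm3, the second Gq-coupled gene with enough counts to rank, was highest in GABA Satb1 Gbx1 neurons, the subcluster that was also near the top for Chrm2. Its level there was 33.1 and 67.8 CPM in female replicates 1 and 2, and 51.0, 61.0 and 0 CPM in male replicates 1, 2 and 3. The GABA Satb1 Gbx1 cells of male replicate 3 gave few UMIs, with 83 of Snap25 against 686 to 1719 in the other libraries used. Their 0 is therefore not read as absence. GABA Slc17a8 Nts neurons gave 30.2 ± 3.63 CPM (SD, n = 5), with no library below 24.9 CPM. Glutamate Tcf7l2 Shox2 (26.9 ± 12 CPM, SD, n = 4), GABA Nr4a2 Cmbl (23.5 ± 8.41 CPM, SD, n = 5), GABA Npy Sst (22.9 ± 3.31 CPM, SD, n = 5) and glutamate C1ql2 Slc17a6 neurons (21.0 ± 13.8 CPM, SD, n = 5) overlapped with each other. The genes most like Chrm3 over the 44 types were Pgm2l1 (r = 0.78), Smim17 (r = 0.77) and Gm38393 (r = 0.76).

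Chrm5 and Chrm4 were at the limit of the data. Chrm5, the third Gq-coupled gene, reached at most 7.64 CPM, in GABA Syt2 Lhx8 neurons (13 UMIs in 203 cells, 95% interval of counting error 4.07 to 13.1 CPM). Chrm4, Gi-coupled, reached at most 0.706 CPM, in GABA Tac1 Pdyn neurons (6 UMIs in 1120 cells, interval 0.259 to 1.54 CPM). GABA Adora2a Penk neurons had 0 Chrm4 UMIs in 793 cells, for which 3 UMIs would be 0.554 CPM, so a difference between these 2 striatal classes was not detectable for Chrm4 at this depth. Intervals and floors cover counting error only.

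**Figure D2:**
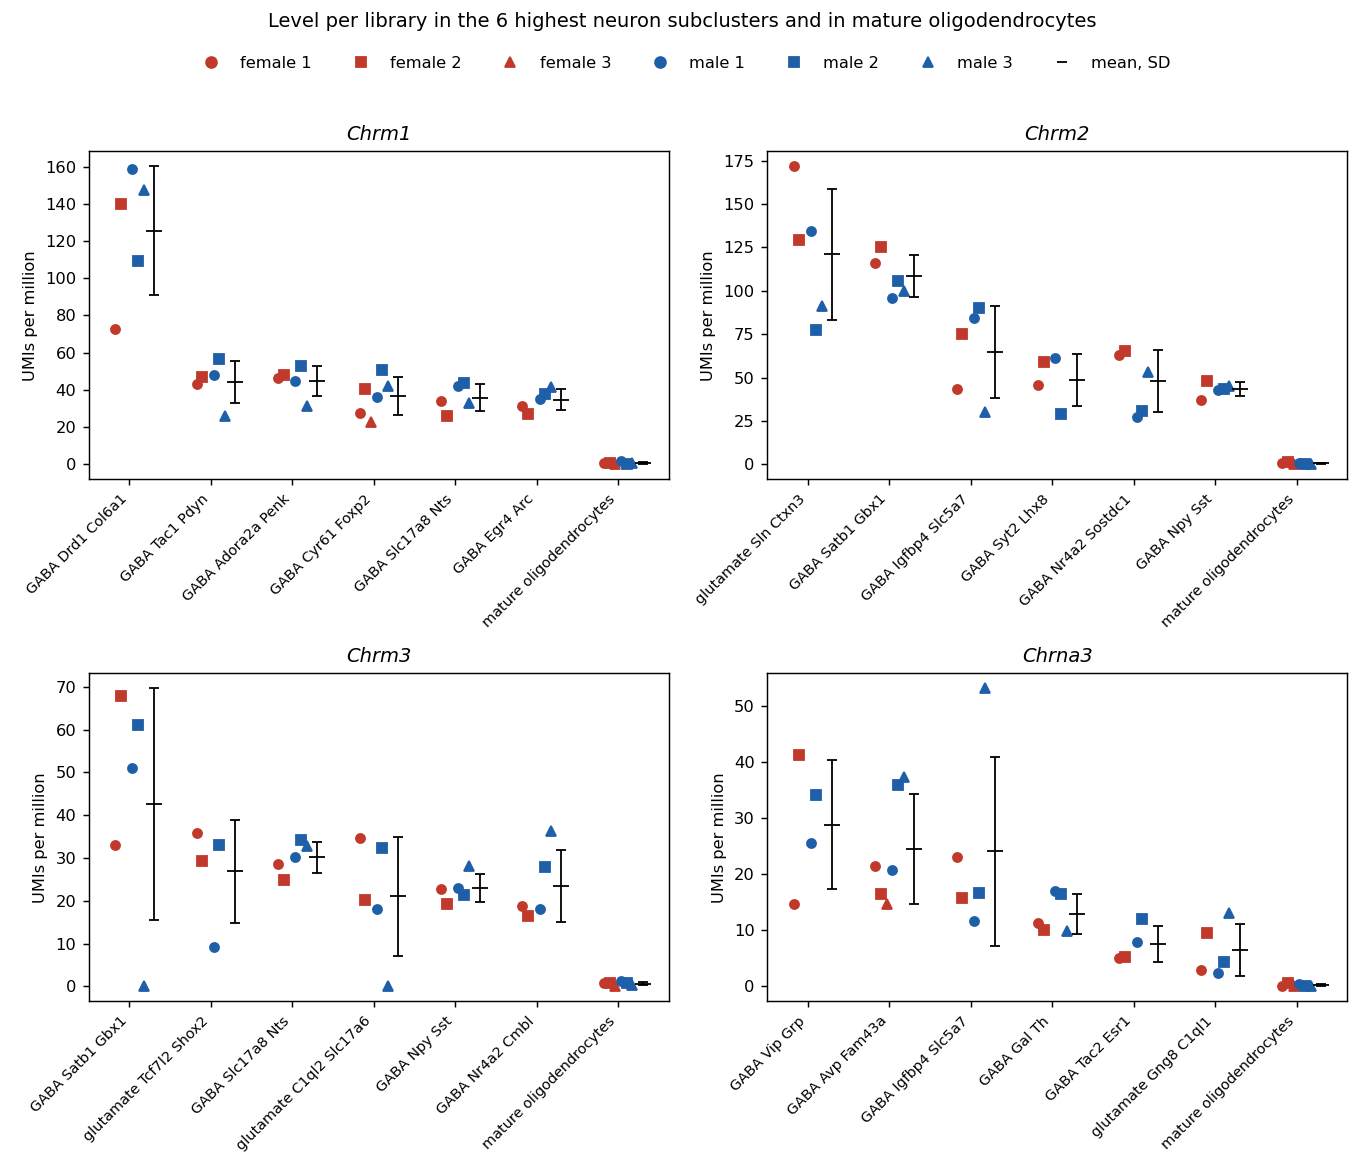
Level per library (CPM) of Chrm1, Chrm2, Chrm3 and Chrna3 in the 6 neuron subclusters with the highest pooled level and in mature oligodendrocytes, with red symbols for female and blue for male libraries, the replicate number by shape, and black bars for mean and SD over libraries with at least 10 cells of the type. Chrm1 in GABA Drd1 Col6a1 neurons lies between 72.9 and 158 CPM in 5 libraries, and Chrna3 in GABA Vip Grp neurons between 14.6 and 41.2 CPM in 4.

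Among the nicotinic subunits with enough counts to rank, Chrna3 reached 10 CPM in the fewest neuron subclusters, 4 of 33, against 6 for Chrna4 and 30 for Chrnb2. Chrna7 reached it in 0. A fixed limit also depends on the total count of a gene. In GABA Vip Grp neurons, which carry the clock peptide Vip, it stood at 14.6 and 41.2 CPM in female replicates 1 and 2 and at 25.5 and 34.1 CPM in male replicates 1 and 2. In GABA Avp Fam43a neurons, which carry vasopressin, the lowest of 6 libraries was 14.7, the median 21.1 and the highest 37.4 CPM. GABA Igfbp4 Slc5a7 neurons gave 24.0 ± 16.8 CPM (SD, n = 5), with 53.2 CPM in male replicate 3 and 11.5 to 23.1 CPM in the other libraries. GABA Gal Th neurons gave 12.9 ± 3.53 CPM (SD, n = 5). The first 3 of these subclusters overlapped with each other. Mature oligodendrocytes stood at 0.123 ± 0.198 CPM (SD, n = 6), and the 2 striatal subclusters GABA Tac1 Pdyn and GABA Adora2a Penk had 0 and 1 UMI. The genes most like Chrna3 were Tuba8, a tubulin (r = 0.75), 2010005H15Rik (r = 0.74) and Chodl, a membrane protein (r = 0.72).

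Chrna4 had its highest pooled level in a glial class, while glutamate Sln Ctxn3 neurons had a higher mean over libraries (30.01 against 22.75 CPM). Oligodendrocyte precursors, the dividing cells that give rise to oligodendrocytes, had 17.7 CPM in the lowest, 23.3 CPM at the median and 28.0 CPM in the highest of 6 libraries. Glutamate Sln Ctxn3 neurons (30.01 ± 21.3 CPM, SD, n = 5), GABA Lrrc4b Vamp1 neurons (18.2 ± 8.32 CPM, SD, n = 5), glutamate Tcf7l2 Tbr1 neurons (18.5 ± 6.85 CPM, SD, n = 5) and glutamate Tcf7l2 Shox2 neurons (12.9 ± 13.1 CPM, SD, n = 4) overlapped with the precursors and with each other. Pooled over libraries, precursors ranked first with 22.4 CPM from 138 UMIs, and the pooled first place went to glutamate Tcf7l2 Shox2 or glutamate Sln Ctxn3 neurons without female replicate 1, female replicate 2 or male replicate 2. The genes most like Chrna4 were Sdc3, a heparan sulphate proteoglycan (r = 0.75), Kif26b (r = 0.72) and Pcdh15, a protocadherin (r = 0.70).

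Chrnb2, the partner subunit, was spread through neurons: 30 of 33 neuron subclusters reached 10 CPM. GABA Tac2 Esr1 neurons were highest, with 49.7 and 49.99 CPM in female replicates 1 and 2 and 56.9 and 57.3 CPM in male replicates 1 and 2. GABA Lrrc4b Vamp1 (38.1 ± 3.07 CPM), GABA Nr4a2 Sostdc1 (34.7 ± 6.05 CPM) and GABA Satb1 Gbx1 neurons (34.5 ± 20.2 CPM, SD, n = 5 each, with 0 in male replicate 3) lay below it in each of those 4 libraries. These cells of male replicate 3 gave few UMIs, as described for Chrm3, so that 0 is not read as absence. Its closest genes over the 44 types were Syp, a synaptic vesicle protein (r = 0.96), Dzank1 (r = 0.96) and Synj1, which recycles synaptic vesicles (r = 0.95). Chrna7 had 117 UMIs in all and at most 2.85 CPM, in glutamate Tcf7l2 Shox2 neurons (3 UMIs, interval 0.588 to 8.33 CPM), so no order of types was read for it.

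Partner subunits were looked for in the same cells. Of 656 neurons with a Chrna4 UMI, 17.5% also had a Chrnb2 UMI, against 13.04% of neurons without Chrna4. After thinning to 2000 UMIs these shares were 7.34% (16 of 218 cells) and 4.30%. Of 576 neurons with a Chrna3 UMI, 13 (2.26%) had one of Chrnb4, the usual partner of Chrna3, against 0.198% of neurons without Chrna3, and the neurons with Chrna3 were deeper (median 9046 against 6960 UMIs). Only 1 cell with both was left after thinning. For Chrna3 and Chrnb2 the order depended on depth, with 17.0% against 13.1% as sequenced and 2.99% against 4.35% thinned. These shares count cells, not libraries, and were not tested.

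The first comparison set the 2 fast transmitter classes against each other. Chrm1 was higher in inhibitory than in excitatory neurons, and Chrna4 and Chrm2 were lower. UMIs were summed per library and class and tested with edgeR's quasi-likelihood test with the library as a block, in the 5 libraries with at least 10 cells of each class (female replicate 3 had 9 excitatory neurons), and p-values were adjusted by Benjamini-Hochberg over all genes tested. Of the 9 genes, 8 passed the expression filter and 3 were called at an adjusted p under 0.05, beside 35.7% of all genes tested.

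Chrm1 stood at 13.6, 12.8, 21.3, 21.4 and 17.7 CPM in inhibitory neurons of female replicates 1 and 2 and male replicates 1, 2 and 3, against 4.28, 4.11, 5.91, 5.33 and 4.64 CPM in excitatory neurons of the same libraries. The classes did not overlap, and the log2 difference was 1.81 ± 0.11 (SE, adjusted p = 7.62e-12). Of the 1857 Chrm1 UMIs in inhibitory neurons of these libraries, 596 lay in GABA Tac1 Pdyn and GABA Drd1 Col6a1 neurons together. Another 255 lay in GABA Adora2a Penk neurons. The part of these striatal subclusters in the difference was not tested. Chrna4 stood at 2.97, 4.14, 3.86, 4.83 and 2.19 CPM in inhibitory neurons, against 6.64, 9.13, 9.80, 14.2 and 11.6 CPM in excitatory neurons. It was lower in inhibitory neurons of all 5 libraries (log2 difference -1.30 ± 0.13, SE, adjusted p = 5.62e-08). Chrm2 averaged 17.9 ± 3.22 CPM in inhibitory and 23.6 ± 3.92 CPM in excitatory neurons (SD, n = 5 each). The 2 ranges overlapped, Chrm2 was lower in inhibitory neurons of 4 libraries, and the log2 difference was -0.36 ± 0.09 (SE, adjusted p = 0.00208). Without the library block the Chrm2 call was lost (-0.39, adjusted p = 0.0565).

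The other tested genes were not called. Chrnb2 averaged 17.7 ± 1.82 CPM in inhibitory and 21.4 ± 3.60 CPM in excitatory neurons (SD, n = 5 each, log2 difference -0.18 ± 0.08, SE, adjusted p = 0.088). Chrnb2 was called as lower without female replicate 2 (adjusted p = 0.0137) and with single neurons gated by transmitter genes in place of clusters (-0.27, adjusted p = 0.0285). Chrm3 differed by -0.14, Chrm5 by 0.28, Chrna3 by -0.08 and Chrna7 by -0.43 on the log2 scale, with adjusted p of 0.346 to 0.724. Chrm4, with 16 UMIs in inhibitory and 3 in excitatory neurons, did not pass the filter. Within each class pooled Chrm2 ran between 0 and 111 CPM in GABA and between 2.99 and 131 CPM in glutamate subclusters.

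**Figure D3:**
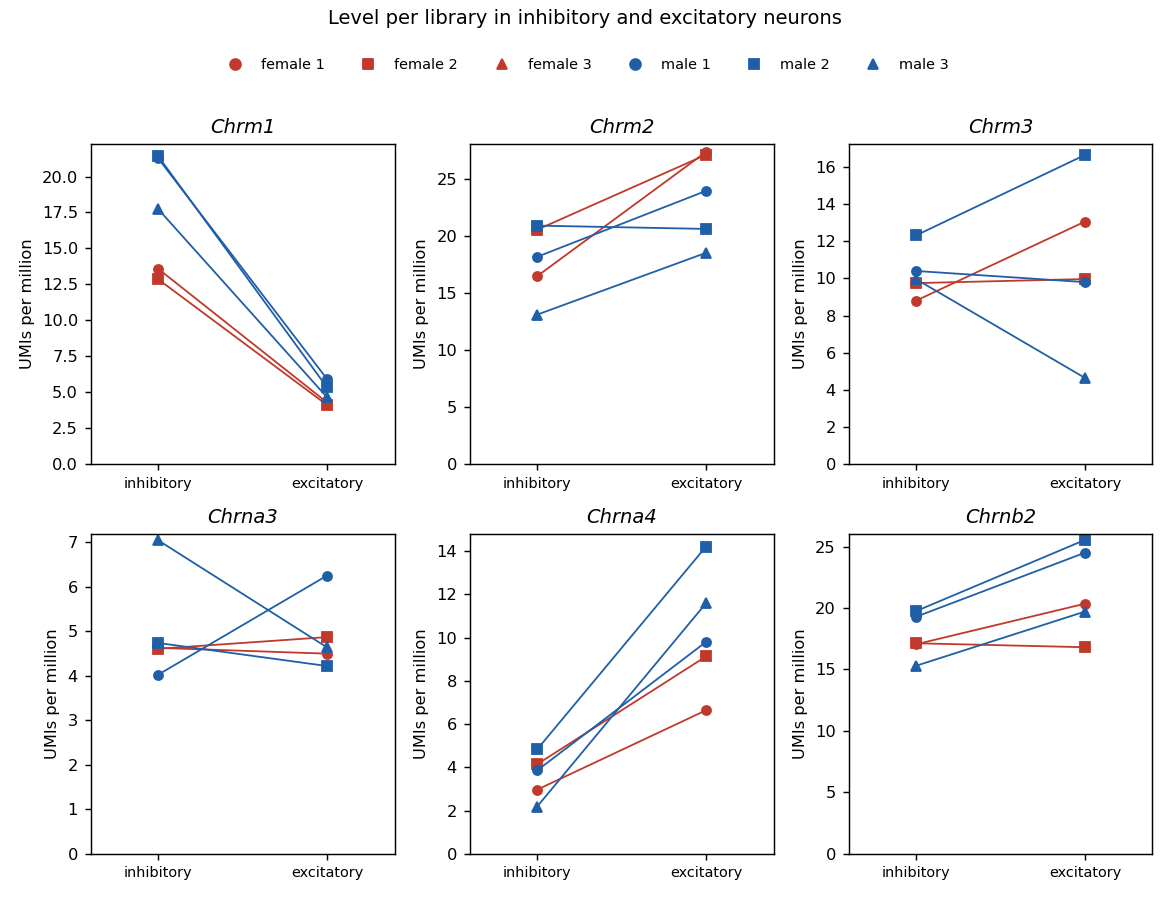
Level per library (CPM) of 6 receptor genes in inhibitory (left) and excitatory neurons (right), with lines joining the 2 classes of a library, red for female and blue for male. Chrm1 lies at 12.8 to 21.4 CPM in inhibitory and 4.11 to 5.91 CPM in excitatory neurons, and Chrna4 at 2.19 to 4.83 CPM in inhibitory and 6.64 to 14.2 CPM in excitatory neurons.

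Genes around the receptors were counted from fixed lists in the same fit. Of 12 listed Gq pathway genes that were tested, 6 were higher and 2 lower in inhibitory neurons, with a median log2 difference of 0.16 against 0.00 over all genes. Plcb1, a phospholipase C that Gq activates, was higher (1.37 ± 0.05, SE, adjusted p = 1.06e-15) and Plcb4, a related enzyme, was lower (-0.53 ± 0.04, SE, adjusted p = 4.43e-10). Of 15 Gi and Go pathway genes, 5 were higher and 6 lower (median -0.06). Rgs9, which shortens Gi signals and is known from striatum, was higher (0.98 ± 0.06, SE, adjusted p = 1.81e-11), and Kcnj3, a subunit of the potassium channel that Gi receptors open, was lower (-0.51 ± 0.07, SE, adjusted p = 4.98e-06). Of 8 chaperones and Ly6 proteins of nicotinic receptors, 4 were higher and 2 lower (median 0.28). Lypd6 was higher (1.52 ± 0.10, SE, adjusted p = 8.47e-11) and Lynx1 lower (-0.42 ± 0.04, SE, adjusted p = 4.87e-08). Of 7 genes that make, store, take up or break down acetylcholine, 3 were higher and 1, Ache, the esterase, was lower (-0.44 ± 0.03, SE, adjusted p = 2.76e-10). None of the 12 other nicotinic subunit genes passed the filter.

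Cells that could release acetylcholine were sought next. No neuron cluster carried Chat, which makes acetylcholine, in 25% of its cells, so neurons with UMIs of at least 2 of Chat, Slc5a7 and Slc18a3 were taken one by one. They numbered 38, of which 8, 11 and 0 came from female replicates 1, 2 and 3, and 10, 7 and 2 came from male replicates 1, 2 and 3. Of these, 23 lay in GABA Igfbp4 Slc5a7 and 10 in excitatory subclusters. Chrm2 was higher in these cells than in other inhibitory neurons. It stood at 98.9 CPM in female replicate 2 and 164 CPM in male replicate 1, the only libraries with at least 10 such cells, against 20.3 and 17.6 CPM in the other inhibitory neurons of the same libraries. The log2 difference was 2.65 ± 0.41 (SE, edgeR adjusted p = 1.94e-08, higher in 2 of 2 libraries), and 2.38% of all genes were called. Over all 38 cells, 51 Chrm2 UMIs were found and 60.5% of the cells had one. These cells were deep, with a median of 10790 UMIs against 6760 in all inhibitory neurons. With every cell thinned to 2000 UMIs no gene was called and the Chrm2 difference was 2.12 (adjusted p = 0.919).

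No other receptor gene was called in this comparison of 2 libraries, in which 7 of the 9 were tested. In the cholinergic cells of those libraries, 5 UMIs of Chrnb2, 2 of Chrm1, 1 of Chrna3 and 0 of Chrm3, Chrm4, Chrm5, Chrna4 and Chrna7 were counted. The other inhibitory neurons of those libraries gave 1195 UMIs of Chrnb2, 1060 of Chrm1, 295 of Chrna3, 669 of Chrm3, 10 of Chrm4, 122 of Chrm5, 271 of Chrna4 and 46 of Chrna7. Chrnb2 stood at 19.0 ± 1.14 CPM in cholinergic cells and 18.2 ± 1.53 CPM in other inhibitory neurons (SD, n = 2 each), with a log2 difference of -0.01 ± 0.79 (SE). The depth of so few cells cannot show a difference for the other genes. Of the acetylcholine handling genes counted here, both that were tested were higher: Ache (2.08 ± 0.19, SE, adjusted p = 2.44e-24) and Prima1, which anchors the esterase to the membrane (6.6 ± 1.01, SE, adjusted p = 1.46e-08). Chat, Slc5a7 and Slc18a3, which chose the cells, and Slc10a4 were left out of this count. They were not left out of the test over all genes. Of 11 Gq genes 1 was lower, Plcb1 (-1.28 ± 0.35, SE, adjusted p = 0.0133). Of 15 Gi and Go genes 2 were higher, Gnai2 (0.94 ± 0.23, SE) and Adcy2 (1.46 ± 0.41, SE), and of 8 chaperones and Ly6 genes 1 was higher, Lypd1 (0.83 ± 0.23, SE).

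The whole GABA Igfbp4 Slc5a7 subcluster, 337 cells, was also set against all other inhibitory neurons, a comparison added after the data were seen. Over all genes this fit called 2432, against 323 with the single cholinergic cells, so a call was more common here. Here Chrna3 was higher as well as Chrm2, with a log2 difference of 2.09 (adjusted p = 2.96e-09), whereas Chrna3 differed by -0.28 ± 2.13 (SE) in the 2 libraries of single cholinergic cells. Chrm1 was lower by a log2 difference of -1.48 (adjusted p = 8.44e-05) and Chrm3 by -2.07 (adjusted p = 0.000134). Clusters were built without the 9 receptor genes. Chrnb4, the usual partner of Chrna3, stood at 3.23 CPM in this subcluster, from 9 UMIs.

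In the striatal classes, Drd1-type neurons (GABA Tac1 Pdyn and GABA Drd1 Col6a1) were set against Adora2a-type neurons (GABA Adora2a Penk). No receptor gene was called. Chrm1 stood at 45.2, 57.8, 69.3, 65.0 and 52.7 CPM in Drd1-type neurons of female replicates 1 and 2 and male replicates 1, 2 and 3, against 46.5, 47.8, 44.7, 53.0 and 31.6 CPM in Adora2a-type neurons. Drd1-type neurons were higher in 4 of 5 libraries, but the ranges overlapped and the log2 difference of 0.28 ± 0.11 (SE) missed the threshold (edgeR, unadjusted p = 0.0162, adjusted p = 0.106). With all cells thinned to 2000 UMIs it was 0.56 (adjusted p = 0.0497), and with GABA Tac1 Pdyn alone on the Drd1 side it was -0.02 (adjusted p = 0.96). The value thus depended on the shallow GABA Drd1 Col6a1 cells.

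Of the 9 genes, 3 passed the filter in the striatal comparison, where 11.7% of all genes were called. At an unadjusted p under 0.05 there was 1 of these 3, beside 22% of all genes, and DESeq2 called 0 of the 3. Chrnb2 averaged 14.7 ± 3.47 CPM in Drd1-type and 12.1 ± 4.38 CPM in Adora2a-type neurons (SD, n = 5 each, adjusted p = 0.689), and Chrm3 averaged 4.16 ± 2.24 CPM in Drd1-type and 4.88 ± 1.51 CPM in Adora2a-type neurons (adjusted p = 0.616). Chrm2 had 12 and 11 UMIs, Chrm4 6 and 0, Chrm5 24 and 5, Chrna3 1 and 1, Chrna4 9 and 6 and Chrna7 9 and 3 UMIs in Drd1-type and Adora2a-type neurons. Around them, 4 of 14 Gi and Go genes were higher in Drd1-type neurons and none lower, among them Rgs4 (0.69 ± 0.07, SE, adjusted p = 3.11e-13) and Adcy2, an adenylate cyclase (2.19 ± 0.33, SE, adjusted p = 2.83e-07). Of 6 chaperones and Ly6 genes 2 were higher, Tmem35 and Lypd1 (0.40 and 0.26).

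Glutamate neurons with Tcf7l2 and Shox2, 117 cells, were set against the other excitatory neurons in 4 libraries. Chrm3 was higher, with 35.9 and 29.3 CPM in female replicates 1 and 2 and 9.29 and 33.0 CPM in male replicates 1 and 2, against 12.4, 9.18, 9.81 and 15.6 CPM in the other excitatory neurons. It was higher in 3 of 4 libraries, and the log2 difference was 1.30 ± 0.38 (SE, edgeR adjusted p = 0.0114), beside 8.42% of all genes called. The call was lost with DESeq2 (1.27, adjusted p = 0.0644), without female replicate 1 (1.27, adjusted p = 0.0517), without female replicate 2 (1.07, adjusted p = 0.383) and after thinning (1.20, adjusted p = 0.57). It rested on 30 UMIs.

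Chrm2 did not overlap between these classes, at 41.4 ± 4.45 CPM in Tcf7l2 Shox2 and 24.2 ± 3.54 CPM in other excitatory neurons (SD, n = 4 each), and still missed the threshold (log2 difference 0.75 ± 0.30, SE, adjusted p = 0.122). Chrm1 had 0 UMIs in the Tcf7l2 Shox2 neurons of the 4 libraries, against 4.28 to 6.02 CPM in the others (adjusted p = 0.078). Chrna3 had 1 UMI against 140 (adjusted p = 0.301), Chrna4 20 against 253 (adjusted p = 0.3), Chrnb2 29 against 547 (adjusted p = 0.582), Chrna7 3 against 25, Chrm5 0 against 45 and Chrm4 0 against 3, the last 3 untested. Of 10 Gq genes 5 were higher in Tcf7l2 Shox2 neurons and none lower, among them Itpr1, a calcium release channel (1.68 ± 0.23, SE, adjusted p = 6.05e-11), and Plcb1 (1.09 ± 0.20, SE, adjusted p = 3.47e-06), with a median log2 difference of 0.50 over the list and -0.05 over all genes. Of 15 Gi and Go genes, 2 were higher and 1 lower.

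Against mature oligodendrocytes, all 7 tested receptor genes were higher in neurons, beside 82.6% of all genes called in either direction. Of the 14164 genes tested, 6318 were called higher and 5380 lower in neurons. Apart from Chrnb2 (66 UMIs), the 7 had 3 to 34 UMIs in mature oligodendrocytes and passed the expression filter through neurons. Their shared direction therefore followed largely from the filter. Log2 differences were 3.31 ± 0.26 for Chrm1, 4.05 ± 0.23 for Chrm2, 2.99 ± 0.21 for Chrm3, 3.62 ± 0.52 for Chrm5, 3.91 ± 0.44 for Chrna3, 3.42 ± 0.40 for Chrna4 and 2.69 ± 0.27 for Chrnb2 (SE, 6 libraries), with adjusted p of 2.67e-09 to 3.75e-05. Chrm5 had 0 CPM in female replicate 3 in both classes and did not separate the classes in every library, while the other 6 genes were higher in neurons of 6 of 6 libraries. Chrm4 (19 UMIs in neurons, 5 in mature oligodendrocytes) and Chrna7 (106 and 1) were not tested.

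Along the oligodendrocyte lineage, Chrna4 stood out in the precursors. The lowest, median and highest of 6 libraries were 17.7, 23.3 and 28.0 CPM in precursors, against 0, 0.0395 and 0.714 CPM in mature oligodendrocytes. The log2 difference was 5.45 ± 0.40 (SE, edgeR adjusted p = 2.44e-10), beside 71% of all genes called. Newly formed oligodendrocytes, the stage between, had 3 UMIs of Chrna4 in 450 cells (0.915 CPM). The precursors also exceeded neurons as a whole, which had 3.67, 5.14 and 6.72 CPM in their lowest, median and highest library, without overlap and in 6 of 6 libraries, a difference that was not tested. A UMI of Chrna4 was found in 8.20% of precursors (median 4034 UMIs per cell), 3.60% of neurons and 0.151% of mature oligodendrocytes, and after thinning in 4.31%, 1.21% and 0.0922%.

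The partner subunit did not follow. Chrnb2 had 8 UMIs in the precursors, at 1.18 ± 0.91 CPM, against 1.60 ± 1.18 CPM in mature oligodendrocytes (SD, n = 6 each). The counts of Chrna4 and Chrnb2 were thus 138 and 8 in precursors and 731 and 2648 in neurons. Snap25 stood at 212 CPM in precursors, 1320 CPM in neurons and 90.3 CPM in mature oligodendrocytes.

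Both other tested receptor genes were also higher in precursors. Chrm1, Chrm2 and Chrna4 had 34, 27 and 11 UMIs in mature oligodendrocytes and passed the expression filter through precursors. Their shared direction therefore followed largely from the filter. Over all 11539 genes tested, 4099 were called higher and 4088 lower in precursors. Chrm1 averaged 6.46 ± 2.60 CPM in precursors and 0.800 ± 0.627 CPM in mature oligodendrocytes (SD, n = 6 each), higher in 6 of 6 libraries (log2 difference 2.13 ± 0.39, SE, adjusted p = 7.35e-05). Chrm2 averaged 4.28 ± 3.67 CPM in precursors and 0.563 ± 0.459 CPM in mature oligodendrocytes, higher in 5 of 6 libraries (2.06 ± 0.44, SE, adjusted p = 0.000384). These 2 rested on 43 and 31 UMIs in precursors, beside the raised Snap25 given above, whose part in them was not tested. Without the library block, and after thinning, Chrna4 alone was called. Chrm3 (7 UMIs in precursors), Chrm4 (0), Chrm5 (2), Chrna3 (1), Chrna7 (4) and Chrnb2 did not pass the filter. Of the list of acetylcholine handling genes, 2 were higher in precursors, Slc5a7 (4.76 ± 0.32, SE, adjusted p = 1.09e-10) and Ache (2.05 ± 0.22, SE, adjusted p = 4.8e-08), and 2 were lower, Prima1 (-5.51 ± 0.30, SE) and Bche, a second esterase (-3.84 ± 0.25, SE). All 7 called chaperones and Ly6 genes of 8 tested were higher, as were all 7 called Gq genes of 10. Of 14 Gi and Go genes, 8 were higher, among them Gnaz (2.33 ± 0.19, SE, adjusted p = 1.04e-09), and 5 were lower, among them Gnai1 (-2.86 ± 0.08, SE, adjusted p = 3.13e-17), both G protein subunits of the Gi family.

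**Figure D4:**
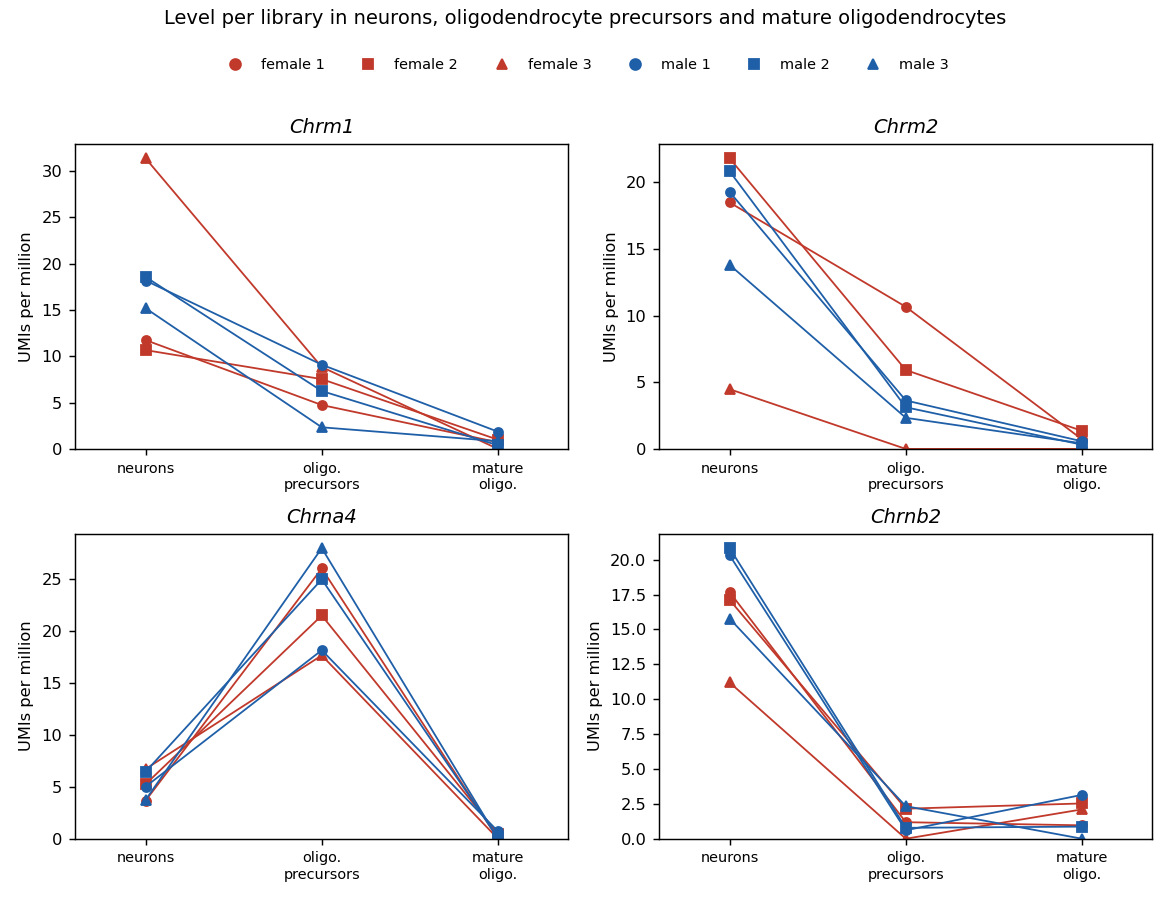
Level per library (CPM) of Chrm1, Chrm2, Chrna4 and Chrnb2 in neurons, oligodendrocyte precursors and mature oligodendrocytes, with lines joining the classes of a library, red for female and blue for male. Chrna4 peaks in precursors at 17.7 to 28.0 CPM, while Chrnb2 stays at or below 2.34 CPM in precursors and lies between 11.2 and 20.8 CPM in neurons.

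In astrocytes only Chrm1 passed the filter. It stood at 0, 6.95 and 19.7 CPM in the lowest, median and highest of 6 libraries, against 0, 0.776 and 1.86 CPM in mature oligodendrocytes (log2 difference 2.58 ± 0.60, SE, edgeR adjusted p = 0.00103, higher in 5 of 6 libraries), beside 65.4% of all genes called. This rested on 26 UMIs in astrocytes, through which Chrm1 passed the filter, so its direction was largely set by the filter. No receptor gene was called without male replicate 2, without the library block or after thinning, while 3 were called without female replicate 3. Snap25 stood at 510 CPM in astrocytes against 90.3 CPM in mature oligodendrocytes and ranged between 0 and 643 CPM over the astrocytes of the 6 libraries; its part in the Chrm1 value was not tested. Chrm2 (26 UMIs), Chrm3 (15), Chrm4 (0), Chrm5 (2), Chrna3 (5), Chrna4 (7), Chrna7 (1) and Chrnb2 (29) were not tested. Pooled over libraries, microglia stood at 2.12 CPM or lower for each of the 9 genes.

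Female and male libraries were compared in all cells, in inhibitory neurons and in excitatory neurons. None of the 9 genes was called by edgeR or DESeq2, each with sex as the only term, in any of the 3. Of all genes tested, 0.0435% were called in all cells, 0.0484% in inhibitory and 0.0554% in excitatory neurons. At an unadjusted p under 0.05 there were 0 of 8 tested receptor genes in all cells, 1 of 8 in inhibitory and 2 of 6 in excitatory neurons, beside 2.29%, 6.9% and 6.16% of all genes tested in the same 3 comparisons. In all cells, log2 differences (female minus male) ran between -0.24 for Chrm1 and 0.44 for Chrm5.

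In inhibitory neurons, Chrm1 stood at 13.6, 12.8 and 33.8 CPM in female replicates 1, 2 and 3, against 21.3, 21.4 and 17.7 CPM in male replicates 1, 2 and 3. The groups overlapped through female replicate 3, which had 100 inhibitory neurons and 14 Chrm1 UMIs, and the log2 difference was -0.51 ± 0.18 (SE, edgeR unadjusted p = 0.0145, adjusted p = 0.697). The Drd1-type and Adora2a-type neurons made up 14.5%, 11.7% and 23.0% of the inhibitory neurons of the female libraries and 19.3%, 16.6% and 18.8% of those of the male libraries, so the 2 libraries lowest in Chrm1 also held the smallest shares of striatal cells. The part of this share in the difference was not tested. Chrm3 stood at 8.80, 9.75 and 2.41 CPM in female and 10.4, 12.3 and 9.96 CPM in male libraries, without overlap (log2 difference -0.23 ± 0.17, SE, adjusted p = 0.846), as for 12.9% of all genes tested. Chrm2, Chrm4, Chrm5, Chrna3, Chrna4, Chrna7 and Chrnb2 overlapped between the sexes in inhibitory neurons.

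In excitatory neurons 2 female and 3 male libraries could be used. Chrm2 stood at 27.4 and 27.2 CPM in female replicates 1 and 2, against 24.0, 20.7 and 18.5 CPM in the male replicates (log2 difference 0.36 ± 0.15, SE, adjusted p = 0.789). Chrna4 stood at 6.64 and 9.13 CPM in female and 9.80, 14.2 and 11.6 CPM in male libraries (-0.48 ± 0.24, SE, adjusted p = 0.807). These 2 genes and Chrm1, of 6 tested, did not overlap between the sexes, nor did 21.6% of all genes tested. Chrnb2 stood at 20.4 and 16.8 CPM in female and 24.5, 25.5 and 19.7 CPM in male libraries (-0.37 ± 0.17, SE, adjusted p = 0.791). None of these differences passed the test over all genes. Chrm3, Chrm4, Chrm5, Chrna3 and Chrna7 overlapped.

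**Figure D5:**
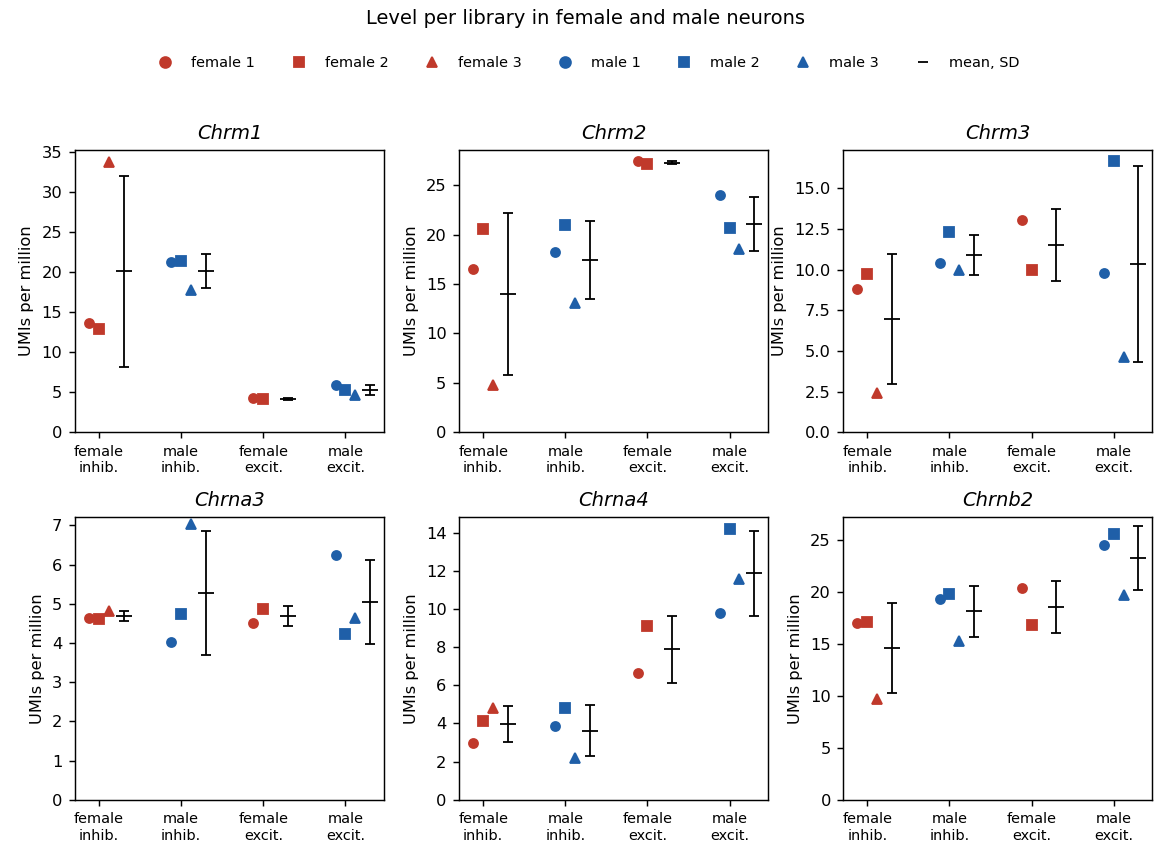
Level per library (CPM) of 6 receptor genes in inhibitory and excitatory neurons of female (red, left of each pair) and male libraries (blue), with the replicate number by shape and black bars for mean and SD over 3 libraries (2 for female excitatory neurons). Female replicate 3 lies at 33.8 CPM for Chrm1 in inhibitory neurons, above the 12.8 to 21.4 CPM of the other 5 libraries.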

How the data were processed

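Single-cell RNA of the preoptic region was counted in 6 libraries. The authors deposited raw UMI counts per gene and cell in 1 table, and the number that ends each barcode names the library, per the labels. The submitters' processing notes name Cell Ranger 2.0.0 and build mm10. The annotation, the strand of counting, the cell-calling rule and the chemistry are not given in the labels or notes used here. Library totals ran between 1278429 and 81162330 UMIs.

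Barcodes under 500 genes or above 20% mitochondrial UMIs were removed (475 of 31299), then doublets called by Scrublet at an expected rate of 0.06 (1002 barcodes, 3.25%). Clusters came from 2000 variable genes with the receptor and listed pathway genes left out except Chat, Slc18a3, Slc5a7 and Slc10a4, 30 principal components, 15 neighbours and Leiden at resolution 1.0 (1.5 for neurons), with seed 0. A neuron cluster had 7 of 10 neuronal markers in 50% of its cells, a limit set after seeing the data. An inhibitory subcluster had most of Gad1, Gad2 and Slc32a1 in at least 50% of its cells, none of them under 25%, and Slc17a6 under 25%. An excitatory subcluster had Slc17a6 in at least 50% of its cells and Slc32a1 under 25%, together with listed excitatory markers. The authors' own annotation was not used here, so a difference from the study may come from rebuilt names.

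UMIs were summed per library and class (at least 10 cells) and tested with edgeR 4.0.16 in R 4.3.3 (TMM, filterByExpr, quasi-likelihood, Benjamini-Hochberg over all genes, called at 0.05), with DESeq2 1.42.0 as an alternative, and the steps were tested on simulated data. Class comparisons had the library as a block and sex had none. Standard errors were taken from the log2 difference and the F statistic. Intervals are exact at 95% (Poisson for sums), and the floor is 3 UMIs. Scanpy 1.11.5 and Python 3.11.15 were used. Genes were matched by Ensembl ID to GENCODE M21, and promoters are from RefSeq on GRCm38.p6.

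The 9 genes and all lists were chosen with earlier results of these data known. By rule, all 9 are named in each comparison, other genes as counts per list with up to 3 called genes per direction by smallest p, and the 3 genes most like a member by Pearson r of log2(CPM + 1) over types of at least 50 cells. Genes like Chrm4, Chrm5 and Chrna7 are not named, since these 3 had too few UMIs. Tmem35 was listed under 2 names and matched under 1. Some results that these rules select are not reported here.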

Additional observations from a re-analysis of the deposited data

Results flagged for a closer look

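The libraries of each group of 4 to 10 were searched for 1 library that stood apart from the others, and 4 of 51 such groups had one. Chance gives about 1 in 20 groups. Chrna3 stood at 7.04 CPM in inhibitory neurons of male replicate 3, against a median of 4.63 CPM over 5 libraries. In all neurons the same library stood at 6.51 CPM of Chrna3, against a median of 4.66 CPM over 6 libraries. Chrna3 stood at 1.95 CPM in glutamate Tcf7l2 Shox2 neurons of female replicate 2, from 1 UMI, and at 0 in the other 3 libraries. Chrm5 stood at 0 CPM in neurons of female replicate 3, the smallest library, against a median of 1.69 CPM over 6 libraries. Their causes were not tested.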

How the results depend on the processing

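Of 372 log2 differences of receptor genes under the alternatives, 351 kept their direction and their side of the threshold, 6 lost a call, 7 gained one and 8 changed sign. A gene that failed the expression filter under an alternative gave no difference there. Calls lost in that way are therefore not among the 372. For sex, the 372 hold only Chrm1 and Chrm3 in inhibitory neurons and Chrm2, Chrna4 and Chrnb2 in excitatory neurons. Without the library block ("no replicate block"), 1 gene was lower in inhibitory than in excitatory neurons in place of 2, 1 was lower in Tcf7l2 neurons, 1 was higher in oligodendrocyte precursors in place of 3, and 0 were higher in astrocytes. Thinned cells gave 0 higher genes for cholinergic cells, 1 for Drd1-type neurons, 0 for Tcf7l2 neurons, 1 for precursors and 0 for astrocytes. DESeq2 called 0 in Tcf7l2 neurons. In astrocytes, 4 were higher with no filter and 2 with doublets kept. The Slc5a7 subcluster in place of single cholinergic cells gave 2 higher and 2 lower. Leaving out 1 library at a time gave 0 to 1 higher in Tcf7l2 neurons and 0 to 3 in astrocytes. Log2 differences changed sign for Chrna3 between transmitter classes (-0.13 to 0.07 over libraries left out) and for Chrnb2 in cholinergic cells (0.039 with DESeq2 and 0.043 with the subcluster). Chrna3 turned to 2.09 with the subcluster, Chrm1 to -0.024 with the larger Drd1-type subcluster alone, and Chrna4 to 0.083 for sex in thinned excitatory neurons. In Tcf7l2 neurons Chrna4 ran between -0.58 and 1.34 and Chrnb2 between -0.035 and 0.72 over libraries left out, negative without female replicate 2. The causes were not tested.

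Counts of all genes called moved by more than 1.5 times as follows. Between transmitter classes 5060 became 2122 without the block and 2576 after thinning. For cholinergic cells 323 became 114 with DESeq2, 0 after thinning, 602 with libraries of at least 5 cells and 2432 with the subcluster. For Drd1-type neurons 1241 became 597 with DESeq2, 507 without the block and 480 after thinning. For Tcf7l2 neurons 994 became 552 with DESeq2, 209 after thinning and 438 without female replicate 2. For sex, 7 became 4 in all cells without male replicate 3, 23 in inhibitory and 69 in excitatory neurons with no filter, and 17 in excitatory neurons without female replicate 1.

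Female and male libraries share only replicate numbers. The correlation of deviations from the group means was 0.38 for number 1, 0.08 for number 2 and 0.29 for number 3, and female replicate 2 correlated best with male replicate 1 (0.30), so the numbers were not taken as pairs. With the replicate block, 819 genes were called in inhibitory and 637 in excitatory neurons, each against 7, and 1 receptor gene, Chrm1, was lower in female inhibitory neurons (-0.57, adjusted p = 0.00603). Leaving out a library was not possible for cholinergic cells, where 2 libraries were used. Chrm4 and Chrna7 were too sparse to compare at this depth. The pooled first place of Chrna3 went to GABA Avp Fam43a without female replicate 2.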

Other observations

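Genes around the receptors showed further patterns in the same cells. Slc5a7, the choline transporter of cholinergic terminals, stood at 48.8 CPM in newly formed oligodendrocytes and 22.0 CPM in oligodendrocyte precursors when libraries were pooled. Of the 12 other nicotinic subunit genes, Chrne, the subunit of the adult muscle receptor, was the only one that passed the filter between neurons and mature oligodendrocytes, and it was lower in neurons (log2 difference -4.16 ± 0.39, SE, edgeR adjusted p = 7.35e-07). Ly6g6e, a Ly6 protein, was also lower in neurons (-6.97 ± 0.48, SE, adjusted p = 4.25e-08), while 8 of 9 tested chaperones and Ly6 genes were higher. Over all 14164 genes tested, 6318 were called higher and 5380 lower in neurons. Chrnb4 was sparse, with 3.74 CPM (10 UMIs) in glutamate Gng8 C1ql1 neurons and 8.95 CPM (4 UMIs) in the 38 cholinergic cells.

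Over the 44 cell types, the level of Chrnb2 ran with Chrm3 (Pearson r = 0.74) and Chrm2 (r = 0.65) more closely than with Chrna4 (r = 0.37). Chrna4 and Chrm2 gave r = 0.62. These are descriptions of types that share libraries and differ in depth.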
